A study of Mus musculus with 6 samples.

Results

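Small nucleolar ribonucleoproteins (snoRNPs) are complexes of a small nucleolar RNA (snoRNA) with a fixed set of proteins. The genes described here are 10 listed members: Fbl, Nop56 and Nop58 of the box C/D complex, Dkc1, Nop10, Gar1 and Nhp2 of the box H/ACA complex, and the assembly factors Naf1, Shq1 and Nolc1. A gene was read from probe sets whose platform annotation gives its symbol alone, and the probe set with the highest mean stood for it. By this rule 9 of the 10 genes were measured, among 21996 genes with a single symbol. The annotation gives Fbl only together with another gene on 1 probe set, so Fbl was not analysed here.

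Expression was measured on Affymetrix Mouse Gene ST arrays in adipocytes derived from C3H10T1/2, an established mouse mesenchymal cell line that can form fat cells in culture. All cultures were at 9 days of differentiation, and all received adenovirus at a multiplicity of infection of 50 for 72 h. One group of 3 biological replicates expressed a scrambled hairpin sequence (scramble). The other group of 3 expressed a U6-driven hairpin against Zc3h10 (Zc3h10 shRNA), which encodes an RNA-binding protein with CCCH zinc fingers. Every culture therefore carried a viral vector, and the series holds no uninfected group and a single hairpin. The comparison asks how snoRNP protein transcripts, and the snoRNAs they bind, differ when the hairpin targets Zc3h10.

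As background, box C/D snoRNAs guide 2′-O-methylation of ribosomal RNA, carried out by fibrillarin, the product of Fbl. Box H/ACA snoRNAs guide the conversion of uridine to pseudouridine, carried out by dyskerin, the product of Dkc1. Most mammalian snoRNAs are cut from introns of host genes, and the core proteins bind them while the host transcript is being made, which protects them from decay. Dyskerin, Nop10, Gar1 and Nhp2 also bind the telomerase RNA.

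In the adipocytes given the Zc3h10 hairpin, Dkc1 fell to 60.8% of its scramble level, and it was the only one of the 9 measured members that passed the test. The transcripts of Nop56, Nop58, Nop10, Gar1, Nhp2, Naf1, Shq1 and Nolc1 did not pass. Many snoRNAs fell on the same arrays: 27 of 47 Snord probe sets (box C/D) and 13 of 28 Snora probe sets (box H/ACA). The median log2 change was −0.11 over the 9 protein genes, −0.63 over the Snord probe sets, −0.46 over the Snora probe sets and 0.01 over all 33079 probe sets. The test was limma on log2 intensity across all probe sets, with Benjamini-Hochberg adjustment over all of them and a threshold of an adjusted p under 0.05. Each change is the mean log2 of the shRNA arrays minus that of the scramble arrays, and the error after ± is its standard error (SE) from this fit.

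Of all probe sets, 3238 of 33079 (9.79%) changed. Leaving out scramble replicate 2 or 3 gave 1807 or 2030 changed probe sets, and leaving out shRNA replicate 2 or 3 gave 2068 or 1959. Zc3h10 itself was at −0.34 ± 0.17 (limma, adjusted p = 0.301; two-sided exact permutation p = 0.2, where 0.1 is the smallest possible), so the labelled target did not pass on these arrays. Its probe set was dim, with a mean log2 of 4.87 against the background limit of 4.37 described below. The size of its change is therefore uncertain. Mature adipocyte markers were present and fell in 10 of 11 measured cases, with a summed intensity of 20761 to 23316 on scramble arrays and 11588 to 12450 on shRNA arrays. Of 6 measured genes of dividing cells 4 rose and 1 fell, with sums of 952 to 1011 and 1145 to 1356. Among 10 progenitor and fibroblast markers 4 rose and 1 fell, with sums of 8585 to 9791 and 10034 to 10341. Their part in the snoRNP results was not tested. Of 6 cartilage and bone genes 2 fell. None of the 6 muscle, 5 macrophage and 4 endothelial markers passed (smallest limma adjusted p = 0.376, with 0 of these at an unadjusted p under 0.05). The macrophage gene Ptprc and the endothelial gene Pecam1 lay within the background described below on every array. By mean level, 1 of the 6 muscle, 1 of the 5 macrophage and 0 of the 4 endothelial markers lay above that background. For the other markers the lack of a call therefore says little. In bulk cultures, fewer cells of a type and less RNA per cell cannot be told apart.

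**Figure D1:**
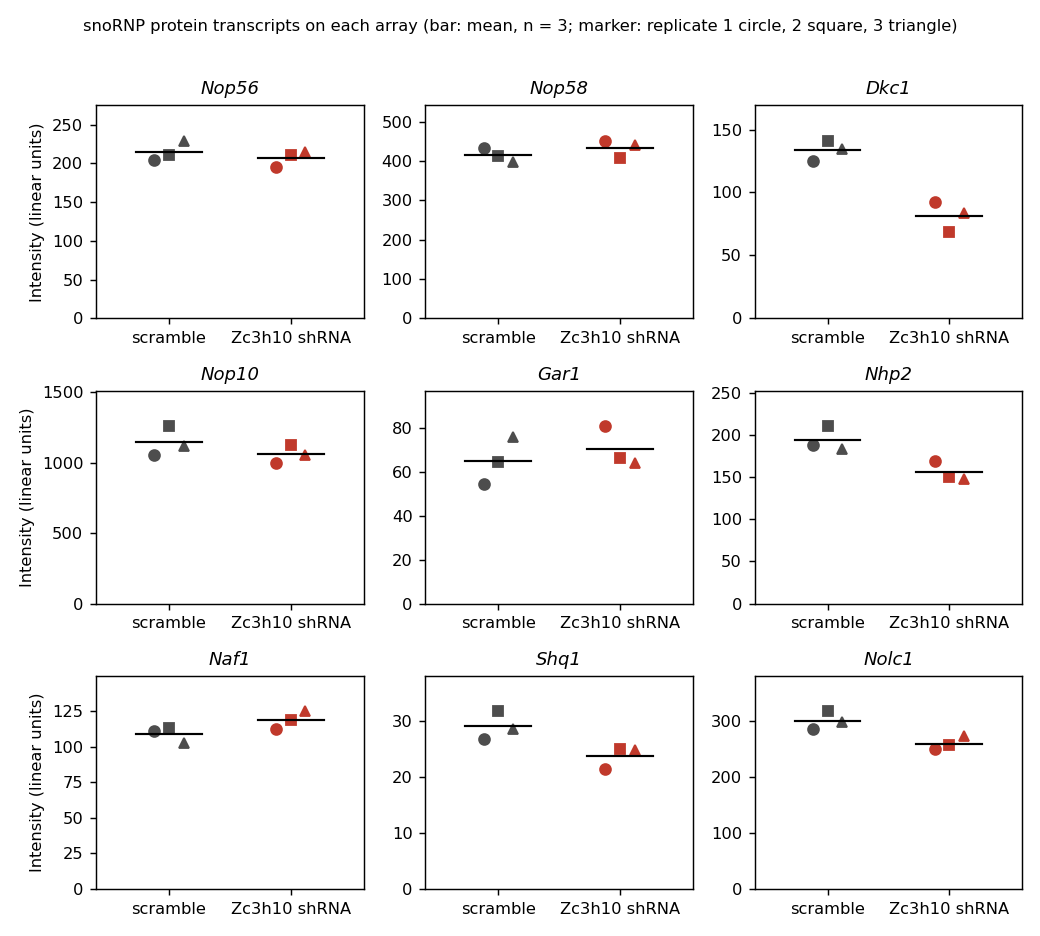
Intensity (linear units, each axis from 0) of the 9 measured snoRNP protein genes on each array, with scramble in grey, Zc3h10 shRNA in red, 1 marker shape per replicate number and a bar at the mean of 3 arrays. The Dkc1 values lie between 68.9 and 92.6 on shRNA arrays and between 125 and 141 on scramble arrays, while the groups of Nop56, Nop58, Nop10, Gar1 and Naf1 overlap.

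Dkc1, whose product is the pseudouridine synthase of the H/ACA complex, had intensities of 125, 141 and 134 on scramble arrays 1 to 3. On shRNA arrays 1 to 3 it was at 92.6, 68.9 and 83.4. All shRNA arrays lay below all scramble arrays. The means were 133 ± 8.19 and 81.6 ± 11.9 (SD, n = 3 each), a log2 change of −0.72 ± 0.12 (limma, adjusted p = 0.00951). The 95% confidence interval of the shRNA level was 49.8 to 74.2% of scramble. Dkc1 passed without each single array in turn (largest adjusted p = 0.0447), and missed the threshold when the variances were not moderated (ordinary t statistic, adjusted p = 0.0718). Thus 1 of 9 measured members fell (11.1%), where 6.6% of all single-symbol genes fell and 12.1% changed in either direction, so the share of members called was close to that background.

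The other core proteins of the H/ACA complex did not pass. Nhp2, which binds the RNA and the other core proteins, had intensities of 188, 210.5 and 183 on scramble arrays and 169, 150.3 and 148 on shRNA arrays. The groups did not overlap, and the log2 change of −0.32 ± 0.10 did not pass (limma, adjusted p = 0.0947). The interval was 68.4 to 94.0% of scramble. Nhp2 passed with an offset of 32 before log2 (adjusted p = 0.0374), with the dimmer part of the probe sets, up to the median, removed (0.0348) and with an intensity trend in the prior (0.0316).

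Nop10, a small protein that docks onto dyskerin, had intensities of 1056, 1261 and 1122 on scramble arrays and 1001, 1129 and 1055 on shRNA arrays. These ranges overlapped, and the log2 change was −0.11 ± 0.10 (limma, adjusted p = 0.627), with an interval of 78.8 to 109% of scramble. Gar1, which contacts dyskerin in the mature particle, was at 54.7, 64.6 and 76.0 on scramble arrays and 80.9, 66.3 and 64.0 on shRNA arrays. The groups overlapped here too, at 0.12 ± 0.15 (limma, adjusted p = 0.726), and without scramble replicate 1 the change was close to 0. The interval of Gar1, 85.9 to 137% of scramble, was the widest of the members. The interval of Dkc1 lay below those of Nop10 and Gar1 and overlapped that of Nhp2; the differences between these genes were not tested.

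Among the assembly factors of the H/ACA complex, Naf1 holds the place of Gar1 while the particle forms, and Shq1 is a chaperone of free dyskerin. Naf1 had intensities of 111, 113 and 103 on scramble arrays and 113, 119 and 125 on shRNA arrays. The ranges overlapped slightly, with a log2 change of 0.12 ± 0.09 (limma, adjusted p = 0.505) and an interval of 94.3 to 126% of scramble. Shq1 was at 26.7, 31.7 and 28.5 on scramble arrays and 21.4, 25.0 and 24.8 on shRNA arrays. All shRNA arrays lay lower, but the change of −0.29 ± 0.11 did not pass (limma, adjusted p = 0.163). Shq1 was the dimmest member. Its mean log2 of 4.71 lay just above 4.37. That value is the upper end of the middle 95% of levels over 1383 probe sets for olfactory or vomeronasal receptors, which are mostly silent outside sensory tissue and stand here for background. All 9 measured members lay above that limit. So did 11513 of the 21996 single-symbol genes, of which 1377 fell.

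Nolc1, a phosphoprotein that moves between the nucleolus and Cajal bodies with snoRNPs of both classes, had intensities of 285, 317 and 298 on scramble arrays. On shRNA arrays it was at 249, 256 and 273. The groups did not overlap, at −0.21 ± 0.09 (limma, adjusted p = 0.226) and 74.9 to 99.9% of scramble. The groups thus did not overlap for 4 of the 9 members, Dkc1, Nhp2, Shq1 and Nolc1, each lower on the shRNA arrays. Groups did not overlap for 31.9% of all single-symbol genes in either direction. All shRNA arrays lay below all scramble arrays for 3348 of 21996.

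The measured scaffold proteins of the C/D complex did not pass and lay near their scramble levels. Nop56 had intensities of 205, 210.3 and 229 on scramble arrays and 195, 211 and 214 on shRNA arrays. Its log2 change was −0.05 ± 0.09 (limma, adjusted p = 0.811), with an interval of 83.1 to 112% of scramble. Nop58, its partner on the other side of the particle, was at 433, 414 and 397 on scramble arrays and 452, 407 and 440 on shRNA arrays. Its log2 change was 0.06 ± 0.09 (limma, adjusted p = 0.772), with an interval of 90.4 to 120.4% of scramble. For both genes the groups overlapped, and the intervals exclude a fall as large as the median of the Snord probe sets.

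Nop56 also had dimmer probe sets with the same single symbol, both with mean log2 values within background. Probe set 17376274 read 16.1, 19.5 and 13.3 on scramble arrays and 9.25, 7.26 and 9.41 on shRNA arrays, a change of −0.91 ± 0.16 (limma, adjusted p = 0.0108). Probe set 17376272 was at 0.10 ± 0.14 (limma, adjusted p = 0.749). Readings within background give no reliable size of change. Which part of Nop56 these probe sets read was not examined, and 5 snoRNA genes lie within it. With the mean of all 3 probe sets, these included, in place of the brightest, the change of Nop56 was −0.29 (limma across genes, adjusted p = 0.0637).

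Promoter sequence is shown for Dkc1, which fell, for Nhp2, which was next lowest, and for Nop56 and Nop58, whose groups overlapped and which hold snoRNA genes in their introns. The stretches run from 130 to 46 bases before the transcript start that the RefSeq promoter table uses (GRCm38.p6, plus strand), at chrX:75095724-75095808 for Dkc1, chr11:51619643-51619727 for Nhp2, chr2:130274282-130274366 for Nop56 and chr1:59684876-59684960 for Nop58. For Nop56 and Nop58 the RefSeq gene begins further upstream than that start, at the base directly after the printed stretch, while for Dkc1 and Nhp2 both starts are the same. Capitals mark GGGCGG (the GC box, bound by Sp1-type factors) and CCAAT (the CCAAT box, bound by NF-Y), read on both strands with overlapping matches kept.
Dkc1: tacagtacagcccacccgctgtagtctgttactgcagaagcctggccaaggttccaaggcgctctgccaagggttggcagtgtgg
Nhp2: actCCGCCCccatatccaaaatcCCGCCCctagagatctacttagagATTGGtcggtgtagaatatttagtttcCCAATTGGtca
Nop56: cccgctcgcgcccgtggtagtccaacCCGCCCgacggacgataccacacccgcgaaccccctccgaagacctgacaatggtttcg
Nop58: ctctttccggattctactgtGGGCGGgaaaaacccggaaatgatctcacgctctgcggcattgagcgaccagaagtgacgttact

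RefSeq promoters were matched for 8 of the 10 listed genes. Within 250 bases before to 50 bases after the start in that table, GGGCGG was found in 5 of these 8 promoters, those of Nop56, Nop58, Nhp2, Shq1 and Nolc1, and in 35.7% of 32851 promoters. CCAAT was found in 4 of 8, those of Nop56, Dkc1, Nop10 and Nhp2, and in 37.4% of all. CACGTG, the E-box bound by Myc-type factors, was found in 0 of 8 and in 7.15% of all. Nop10 and Gar1, like Dkc1, had no GGGCGG match in this window. These matches describe letters only.

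**Figure D2:**
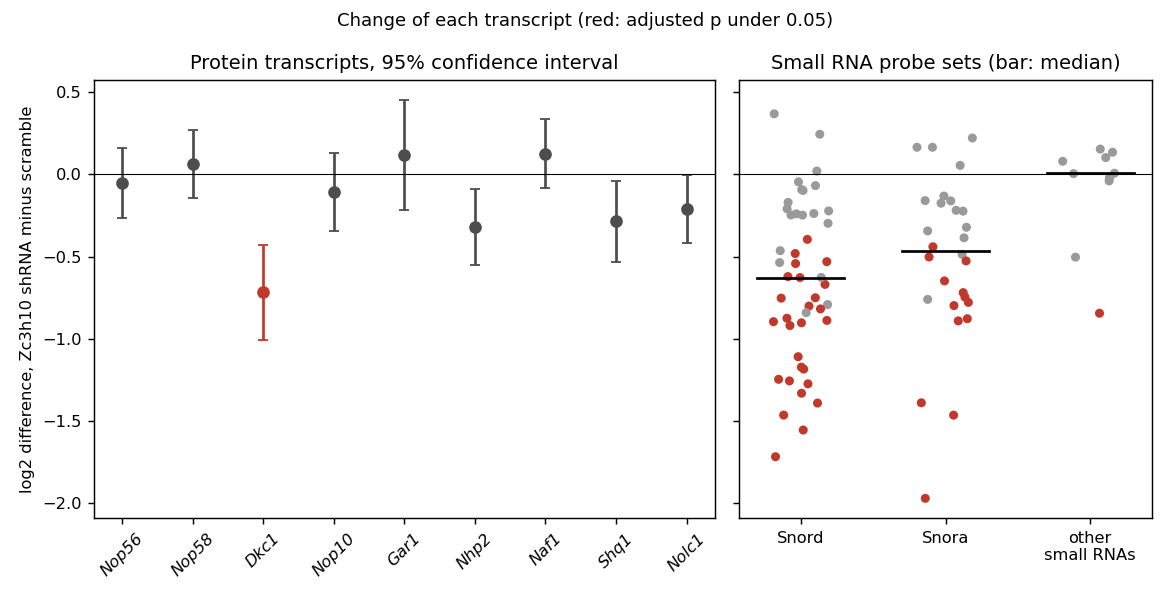
Log2 difference (Zc3h10 shRNA minus scramble) of the 9 protein genes with 95% confidence intervals, left, and of each Snord, Snora and other small RNA probe set with the median as a bar, right; red marks an adjusted p under 0.05. The Snord and Snora medians lie at −0.63 and −0.46, while 8 of the 9 protein genes lie between −0.32 and 0.12.

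The snoRNAs were read on the same arrays. Their values are levels in RNA isolated on silica columns, and the recovery of short RNAs was not tested. Ratios of a snoRNA to its host, given below, share this limit. Of 47 Snord probe sets 27 fell (57.4%) and the other 20 did not pass, where 5.48% of all probe sets fell. For 33 of the 47 all shRNA arrays lay below all scramble arrays, which held for 13.3% of all probe sets. The 3 brightest by mean were Snord99, Snord82 and Snord55. Snord99 read 3406, 3917 and 3322 on scramble arrays and 2664, 2686 and 2724 on shRNA arrays, a change of −0.39 ± 0.10 (limma, adjusted p = 0.0382). Snord82 overlapped between the groups at −0.24 ± 0.15 (limma, adjusted p = 0.433), and Snord55 fell by 0.67 on the log2 scale.

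The largest Snord changes were those of Snord35b, Snord58b and Snord72. Snord35b read 96.2, 149.96 and 101 on scramble arrays and 43.0, 28.5 and 33.4 on shRNA arrays, a change of −1.72 ± 0.20 (3.29-fold lower; limma, adjusted p = 0.00205). Snord58b was at −1.55 ± 0.20 and Snord72 at −1.46 ± 0.29. For Snord72, shRNA replicate 2 (14.7) was within background and shRNA replicate 3 (21.6) close to it, so the size of its change and its rank are uncertain. Of the 47 probe sets, 40 had a mean above the receptor limit, and all 27 falls were among these 40, with a median of −0.77. Over the whole array 14504 probe sets lay above that limit, and 1680 of them fell. Without shRNA replicate 3 the number of falls was 17, and with an ordinary t statistic it was 11.

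Among 28 Snora probe sets of 26 genes 13 fell (46.4%), and in 17 the shRNA arrays all lay below the scramble arrays. Of the 28, 21 had a mean above the receptor limit, with 12 of the falls and a median of −0.65. The remaining fall, Snora2b, had a mean log2 of 4.06, within background. Both probe sets of Snora19, which did not pass, gave the same values on every array. The brightest was a probe set of Snora33, at 8575, 8344 and 8297 on scramble arrays and 7586, 7198 and 6907 on shRNA arrays; the groups did not overlap, and its change of −0.22 ± 0.09 did not pass (limma, adjusted p = 0.179). Snora73b, at −0.44 ± 0.10, and Snora73a, at −0.50 ± 0.10, followed in brightness and passed (limma, adjusted p = 0.0301 and 0.0144). The largest changes were those of Snora30 (−1.97 ± 0.41), Snora15 (−1.46 ± 0.22) and Snora34 (−1.39 ± 0.25). Snora30 read 71.9, 106 and 118 on scramble arrays and 47.7, 13.5 and 23.3 on shRNA arrays, so that the values of shRNA replicates 2 and 3 were within or near background. Snora15 read 29.8, 17.2 and 27.8 on shRNA arrays, the second of these within background. The sizes and ranks of the changes of Snora30 and Snora15 are therefore uncertain. The count of 13 was 6 without scramble replicate 2, 8 without shRNA replicate 2, 7 without shRNA replicate 3 and 2 with an ordinary t statistic.

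Other RNAs that bind the same proteins were read by few probe sets. Of 6 Scarna probe sets (guide RNAs of Cajal bodies) 3 fell, against 5.48% of all probe sets, with a median of −0.51. Terc, the telomerase RNA and a ligand of dyskerin, read 28.1, 21.9 and 28.2 on scramble arrays and 7.96, 11.8 and 10.8 on shRNA arrays. It fell by 1.36 on the log2 scale (SE 0.17; limma, adjusted p = 0.00238), but its shRNA values lay within background, so the size of that fall is uncertain. Rnu3a, a U3 RNA of the C/D class, was at −0.53 ± 0.18 and did not pass (limma, adjusted p = 0.133).

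Small RNAs outside these classes were set beside the snoRNAs, a comparison added after seeing the data. They were picked by RNA class and not matched to the snoRNAs in length or level. Whether the change is particular to C/D and H/ACA RNAs was therefore not tested. Of 10 probe sets for spliceosomal, 7SK, RNase P-type and Y RNAs, 1 fell, Rny3 at −0.84 ± 0.17, and the median was 0.01. Rny1, the other Y RNA read, was at −0.50 ± 0.23 and did not pass (limma, adjusted p = 0.249). Rnu5g, at a mean log2 of 2.09, lay within background. The 7SK RNA, Rn7sk, read 11360, 10964 and 11934 on scramble arrays and 11679, 11649 and 11097 on shRNA arrays on the brighter of its probe sets. Those values lay close to the highest intensity on each array (12519 to 13202), where a change may read smaller. Of 506 microRNA probe sets, 18 rose and 1 fell (3.75% called, against 9.79% of all probe sets), with a median of 0.04. Among the 506 microRNA probe sets, 101 had a mean above the receptor limit.

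**Figure D3:**
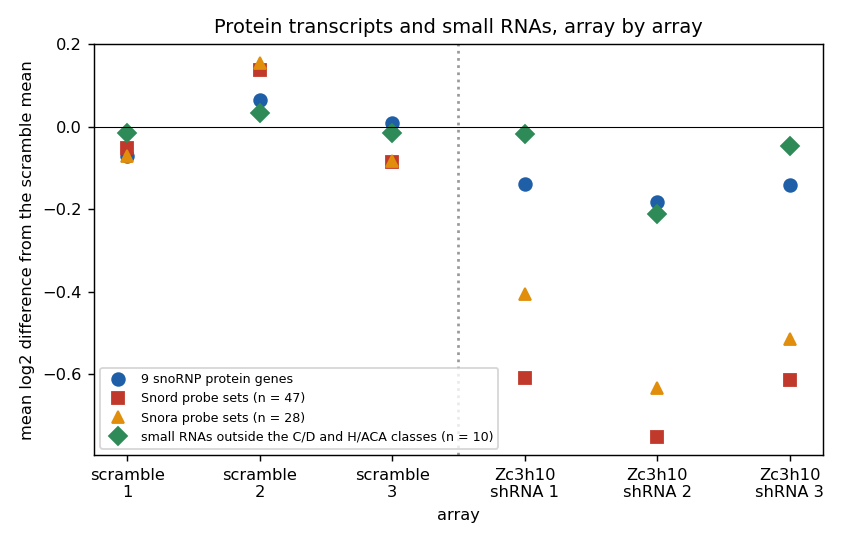
Mean log2 difference from the scramble mean on each of the 6 arrays, for the 9 snoRNP protein genes, 47 Snord, 28 Snora and 10 other small RNA probe sets. The Snord means lie between −0.75 and −0.61 on the shRNA arrays and the protein genes between −0.18 and −0.14.

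Array by array, the Snord probe sets averaged −0.61, −0.75 and −0.62 relative to the scramble mean on shRNA arrays 1 to 3. The Snora probe sets averaged −0.40, −0.63 and −0.51, and the 9 protein genes −0.14, −0.18 and −0.14. Both snoRNA classes were therefore lower on each shRNA array than the protein genes were. The other small RNAs averaged −0.02, −0.21 and −0.05, so shRNA replicate 2 was the lowest array for every one of these sets. Scramble replicate 2 was the highest scramble array for the Snord (0.14) and Snora (0.15) probe sets, and without it the medians over the probe sets were −0.51 and −0.38.

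The genes of Nop56 and Nop58 allowed a snoRNA to be compared with its host, each host being read from its brightest probe set. RefSeq annotation places 5 snoRNA genes within Nop56, 4 within Nop58 and 1 within Dkc1. Single-symbol probe sets read Snord110 of Nop56 and Snord70 and Snord11 of Nop58. Snord110 read 1514, 1546 and 1613 on scramble arrays and 942, 976 and 859 on shRNA arrays, a change of −0.75 ± 0.09 (limma, adjusted p = 0.00217), while Nop56 was at −0.05. Snord70 read 181, 249 and 195 on scramble arrays and 86.7, 54.5 and 116 on shRNA arrays, a change of −1.33 ± 0.26 (limma, adjusted p = 0.0155). Snord11 read 74.7, 88.9 and 88.4 on scramble arrays and 48.5, 43.1 and 44.3 on shRNA arrays, a change of −0.89 ± 0.11 (limma, adjusted p = 0.00202), while Nop58 was at 0.06.

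The log2 ratio of each snoRNA to its host gene was lower on all 3 shRNA arrays than on all 3 scramble arrays. The difference in that ratio was −0.70 for Snord110 to Nop56, −1.39 for Snord70 to Nop58 and −0.95 for Snord11 to Nop58. The ratio was not computed with the mean of all Nop56 probe sets, by which Nop56 was at −0.29. Snord70 and Snord11 were set against the same Nop58 values, so their ratios are not independent. For each of these 3 ratios the exact permutation p (two-sided) was 0.1, the smallest that this test can give with 3 against 3 arrays. A probe set within an intron cannot tell the mature snoRNA from the unspliced host transcript.

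**Figure D4:**
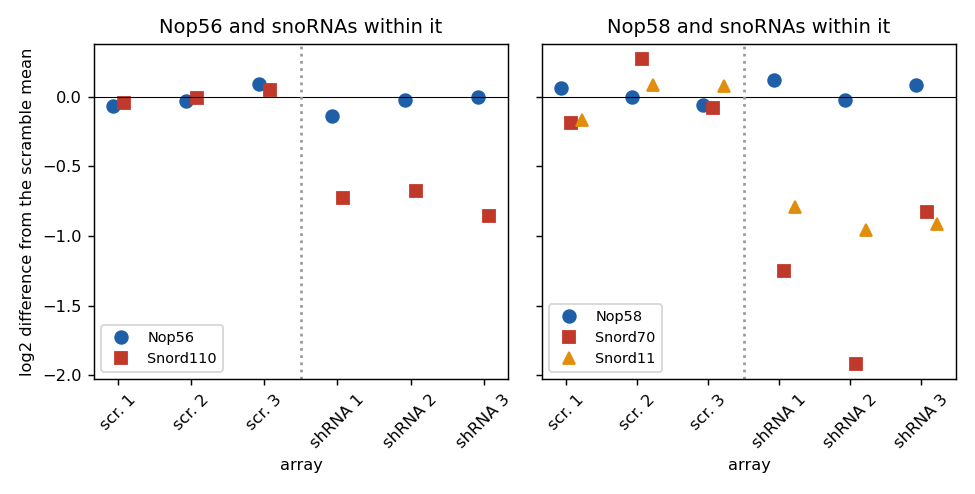
Log2 difference from the scramble mean on each array for Nop56 with Snord110, left, and for Nop58 with Snord70 and Snord11, right. The host genes, each read from its brightest probe set, stay near 0 on all arrays, while the 3 snoRNAs lie below all scramble arrays on each shRNA array.

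Other genes of the same pathways were read from lists of symbols. For comparison with the counts in these lists, 6.6% of all single-symbol genes fell and 12.1% changed in either direction. Of 16 measured genes of other snoRNP proteins and assembly factors 1 changed, against 12.1% of all genes, with a median of 0.00. It was Znhit6, needed for C/D particle assembly, which rose by 0.45 ± 0.10 (limma, adjusted p = 0.0219), from 104, 92.4 and 97.4 to 140, 124 and 138. Snu13, the protein that nucleates both the C/D particle and the U4 splicing particle, Ruvbl1 and Ruvbl2, the ATPases of the assembly chaperone, and Nufip1 did not pass. The call of Znhit6 was lost without scramble replicate 2, scramble replicate 3, shRNA replicate 1 or shRNA replicate 3.

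Of 28 proteins of the U3 particle and the small subunit processome, which processes the ribosomal RNA precursor, 3 fell, with a median of −0.05. Rcl1 was at −0.85 ± 0.11, Utp4 at −0.46 ± 0.09 and Pwp2 at −0.38 ± 0.09. Of 28 large subunit assembly and other nucleolar factors 3 fell and 2 rose, with a median of −0.05. Those that fell were Nop16 (−0.79 ± 0.12), the methyltransferase gene Ftsj3 (−0.42 ± 0.08) and Pes1 (−0.32 ± 0.08), and those that rose were Rrp1b (0.54 ± 0.11) and the nucleophosmin gene Npm1 (0.42 ± 0.10). The U3 count was 1 when replicate 2 or replicate 3 of either group was left out. The large subunit count was 1 without any scramble array or without shRNA replicate 3, 3 when shRNA replicate 1 was left out and 2 when shRNA replicate 2 was left out.

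Of 14 genes of RNA polymerase I and its initiation factors, which transcribe the ribosomal RNA precursor, 1 fell, with a median of 0.02. It was Taf1d, itself a host of intronic snoRNAs, at −0.83 ± 0.12 (limma, adjusted p = 0.00457), from 2004, 2590 and 2152 to 1373, 1209 and 1187. The catalytic subunit gene Polr1a was at 99.8% of scramble (limma, adjusted p = 0.993), and Ubtf, an activator, at 110.5% (0.423).

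Enzymes that modify RNA without a guide RNA made up the next lists. Of 12 stand-alone pseudouridine synthases 3 fell (25%), against 6.6% of all single-symbol genes, with a median of −0.15. All 12 lay above the receptor limit, and of the 11513 single-symbol genes above that limit 1377 fell. They were Pus10 (−0.62 ± 0.08), Pus1 (−0.43 ± 0.08) and Rpusd4 (−0.63 ± 0.13), which acts in mitochondria. That count was 1 without scramble replicate 2. Of 7 stand-alone ribosomal RNA methyltransferases 1 fell, Mrm1, a mitochondrial enzyme, at −0.42 ± 0.09, and this call was kept without shRNA replicate 2 but lost without any other single array.

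Of 12 genes of the Myc network, whose factors are known to drive genes of ribosome production, limma called 0, with 3 at an unadjusted p under 0.05. The count was 2, both lower, with an offset of 32, with the lower quartile or the lower part up to the median of probe sets removed, and with an intensity trend in the prior. An ordinary t statistic called 1, and the count was 0 under the other alternatives. Myc itself was at −0.30 (limma, adjusted p = 0.156), with intensities of 134, 169 and 154 on scramble arrays and 125, 115 and 129 on shRNA arrays, which did not overlap.

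**Figure D5:**
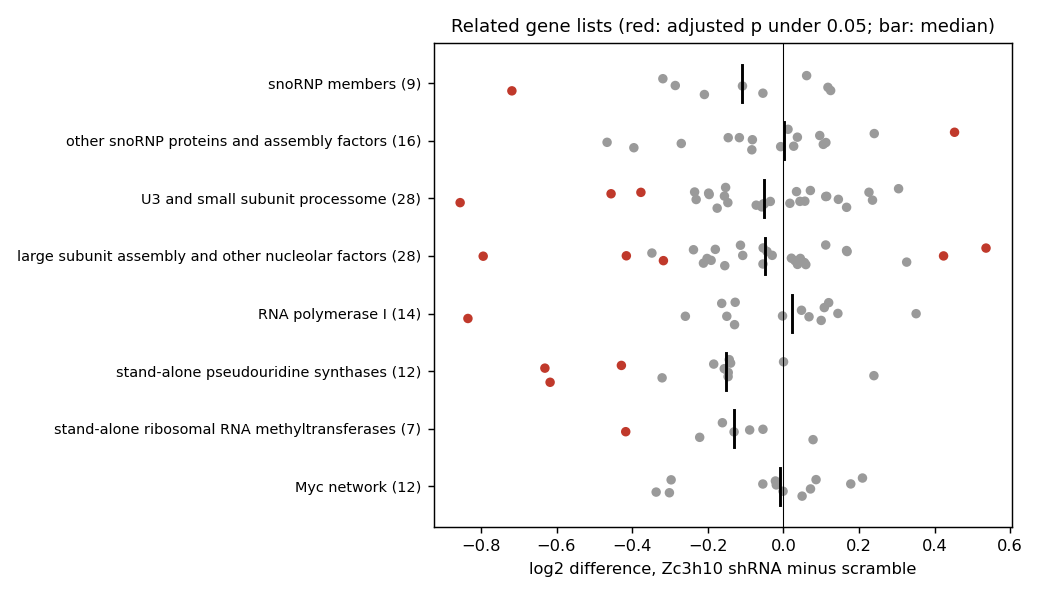
Log2 difference (Zc3h10 shRNA minus scramble) of every measured gene in 8 related lists, with the number of genes in parentheses, the median as a bar and red for an adjusted p under 0.05. The medians lie between −0.15 and 0.02, and the single red point of the snoRNP members is Dkc1.

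The genes whose pattern over the 6 arrays lay closest to that of Dkc1, among 10290 genes at or above the median level, were Alg3, Ldha and Itprid2. The measure was the root mean square difference of log2 values centred on each gene's mean over the 6 arrays, which was 0.036 for Alg3, 0.046 for Ldha and 0.048 for Itprid2. Alg3 acts in protein N-glycosylation and Ldha encodes a lactate dehydrogenase subunit. All 3 fell, at −0.69, −0.73 and −0.73, which follows from choosing them by their likeness to Dkc1.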

How the data were processed

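Total RNA from 6 cultures, isolated on silica columns per the labels' protocols, was hybridised to 1 array each. The deposited values are probe set intensities on a linear scale, already scaled between arrays by the authors; this was read from the values (array medians 15.6 to 16.1). Per the submitters' processing notes, the software was Affymetrix Expression Console and Partek 6.6. The methods of background correction and summarisation were not given in the sources used here. Replicates were not pooled. The labels do not say more of the biological replicates than that name, so p-values measure the spread between these arrays.

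Log2 was taken without a pseudocount. limma 3.58.1 in R 4.3.3 (lmFit, eBayes, 4 residual degrees of freedom, two-sided) was fitted to all 33079 probe sets, of which 23043 had 1 symbol, 1740 several and 8296 were unnamed here; updating by gene number against RefSeq (GRCm38.p6) changed 0 symbols. Confidence intervals (95%) come from the same fit and are not adjusted. Counts of Snord and Snora are per probe set. Lists were described by counts and medians. The code was tested on simulated data.

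The members, lists and tests were chosen with earlier results of these data known. Named genes were all members, up to 4 per list with the smallest p among those past the threshold without overlap, the 3 brightest and 3 most changed Snord and Snora probe sets, and the 3 genes most like Dkc1; the same search for Fbl could not be made. Pes1, host snoRNAs, Scarna, Terc, Rnu3a, other small RNAs and the genes named as not passing were chosen after their values were seen. Alternatives were other scalings, an offset, filters on dim probe sets, other priors, an ordinary t statistic, array weights, a replicate block, the mean of all probe sets of a gene, and leaving out each array.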

Additional observations from a re-analysis of the deposited data

How the results depend on the processing

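The direction of the 9 protein genes and their side of the threshold held in 157 of 162 combinations of gene and setting. Dkc1 was called in every setting (−0.81 to −0.55) except the ordinary t statistic, under which 0 of 9 members, 11 Snord, 2 Snora and 1972 of all probe sets were called. With an offset of 32, with probe sets under the median left out and with an intensity trend in the prior, 2 members were called, Dkc1 and Nhp2. Gar1 ranged from −0.0013 (without scramble replicate 1) to 0.24 (without scramble replicate 3). Without each array in turn, 1 member was called each time, with 17 to 26 Snord (1 of them higher without scramble replicate 1), 6 to 10 Snora and 1807 to 2578 of all probe sets. Snord calls were otherwise 24 to 30 and Snora calls 9 to 14. Deviations from the group means were little correlated between arrays of the same replicate number (0.084, −0.0046 and 0.043). The labels do not say whether replicates were paired, and these correlations cannot decide it. With a replicate block 1 member, 24 Snord, 9 Snora and 2455 of all probe sets were called. The cause of these differences was not tested.

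Precision is limited by having 3 arrays in each group. Scaling was done before deposit, and no scaling tried moved the median change of all probe sets by over 0.1 (log2). The scalings tried bring the arrays to a common level, so they could not show a shift shared by most probe sets.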
